A study of Homo sapiens with 39 samples.

Results

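The comparison described here is between 2 lines of HCT116 cells, an established human colorectal cancer line, that differ in the N-terminus of the HNF4A isoform they produce. HNF4A (hepatocyte nuclear factor 4 alpha) is a nuclear receptor transcription factor of liver, gut, kidney and pancreas. The isoform 8 line (HNF4alpha8-GFP) and the isoform 2 line (HNF4alpha2-GFP) have 3 libraries each, 6 of the 39 libraries of the series, and they were taken by their labels and not by any measured value. All rows of the tables were compared except HNF4A1 to HNF4A12, the rows of the isoforms themselves.

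The HNF4A gene has a pair of promoters. P1 transcripts, such as isoform 2, encode an N-terminal activation domain, AF-1, and are known from adult liver and differentiated gut epithelium. P2 transcripts, such as isoform 8, start at another first exon and lack AF-1, and the gut makes both kinds. Isoforms 2 and 8 also share an insertion of 10 residues in the C-terminal part, so that, by the standard nomenclature and not by the labels, they differ in the N-terminus alone. HNF4A binds DNA as a homodimer at repeats of a short receptor half-site and is known for activating genes of lipid transport, bile acid and drug metabolism, coagulation and the microvillus.

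Each line was made from Flp-In T-REx HCT116 cells by placing 1 copy of an isoform, with GFP joined to its C-terminus, at 1 genomic site. Both lines and the parental cells, which carry no construct, were induced for 48 h with doxycycline at 2.5 µg/ml in medium free of the selection drugs. Before induction the lines had been kept in 5 µg/ml blasticidin and 100 µg/ml hygromycin B, and the parental cells in 5 µg/ml blasticidin and 100 µg/ml zeocin. Each isoform is represented by 1 stable line, and no group made GFP alone, so the isoform and the history of its line cannot be told apart. Nothing in the labels says that the 3 libraries of a line came from separate cultures, so the p-values measure the spread between these samples, which may be technical.

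Values are TPM, a share of each library's transcripts, which the authors normalised within each library. Of 14 colorectal epithelium markers, 8 exceeded 1 TPM in both lines: CDH1, CDX2, EPCAM, KRT8, KRT18, KRT19, LGALS4 and VIL1. CDH17, CDX1, CEACAM5, GPA33, KRT20 and MUC13 did not. In the parental cells 6 of the 14 exceeded 1 TPM, without LGALS4 and VIL1. The summed levels were 4190 to 4520 TPM for isoform 2, 4100 to 4470 TPM for isoform 8 and 3060 to 3190 TPM for the parental cells. No hepatocyte marker of 10 exceeded 1 TPM in either line, with 4 of the 10 (AFP, FGA, HP and TTR) at 0 in both. Of 7 fibroblast markers, DCN and LUM were at 0 in all 6 libraries, and COL1A1 alone exceeded 1 TPM in both lines. The fibroblast sum was 10.6 to 12.1 TPM in isoform 2, 9 to 12.7 TPM in isoform 8 and 13.6 to 15.5 TPM in the parental cells. Among markers of blood and endothelium the summed level was 36.2 to 39.8 TPM in isoform 2 and 20.7 to 21.2 TPM in isoform 8. Most of that sum was CD68, a lysosomal glycoprotein (32.6 and 15.6 TPM in the 2 lines, 3.85 TPM in the parental cells), whose part in other results was not tested. Transcripts of the mitochondrial genome made up 9.87%, 6.3% and 8.63% of the isoform 2 libraries and 3.68%, 9.1% and 4.68% of the isoform 8 libraries, so replicates 1 and 3 of isoform 8 were low (range over 39 libraries, 3.35% to 10.9%). All 15 mitochondrial rows lay below 0 (median log2 difference of -0.56), and RNR1 and RNR2, the mitochondrial ribosomal RNAs, were called lower. With these rows left out, 240 rows were called between the lines in place of 231.

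HNF4A mRNA was not lower in the isoform 8 line. Summed over its rows it stood at 577, 655 and 609 TPM in the isoform 2 libraries and at 737, 701 and 763 TPM in those of isoform 8, against 31.5 ± 0.589 TPM (SD, n = 3) in the parental cells. The 2 lines did not overlap, and the means of 614 ± 39.2 and 734 ± 31.2 TPM (SD, n = 3 each) differed by 120 TPM, a ratio of 1.2. The two-sided exact permutation p was 0.1, the smallest that 3 against 3 can give. In each line nearly all of it was assigned to the row of the line's own isoform. HNF4A12, the row with most of the parental signal at 27.3 to 28.7 TPM, was near 0 in both. The rows are isoforms of 1 gene, so construct and endogenous transcripts were not told apart here. Protein was not measured.

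The isoform 8 line had lower levels of a set of gut and liver genes than the isoform 2 line, among them the lipid droplet genes CIDEB and CIDEC, the microvillus protein villin (VIL1), the transcription factor CREB3L3 and coagulation factor X (F10). A smaller set was higher, among them TMEM132D-AS1, RPGRIP1, FGF13, CYP11A1 and OAS1. Of 15002 tested rows, 231 (1.54%) were called, 158 lower in isoform 8 (1.05%) and 73 higher (0.487%), where a call means an adjusted p under 0.05 in the limma fit and a difference of at least 1 in log2(TPM + 1). The called differences ran from -3.96 to 3.75, with a median of -1.36 for the lower and 1.16 for the higher rows. A difference past 2 was reached by 26 lower and 11 higher rows. Of the 231, 227 had 3 values in one line all on one side of those in the other, a state that 54.5% of all tested rows shared, and 169 stayed called when each of the 6 libraries was left out in turn. The 4 called rows nearest the minimum difference had sizes of 1 to 1.002 and the 4 nearest outside it 0.995 to 0.999.

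**Figure D1:**
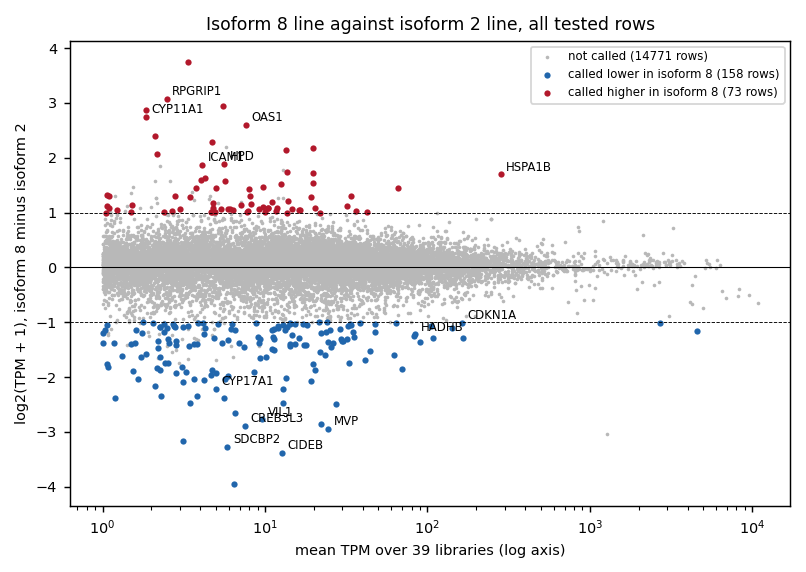
Each point is 1 tested row, with its mean TPM over 39 libraries on a log axis against its difference in log2(TPM + 1), isoform 8 minus isoform 2. The 158 rows called lower (blue) reach -3.96 and the 73 called higher (red) reach 3.75, and dashed lines mark the minimum difference of 1.

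Without the minimum difference, 6636 rows (44.2%) had an adjusted p under 0.05, 2206 of them lower (14.7%) and 4430 higher (29.5%) in isoform 8. That split depends on the scaling of the libraries. With median-of-ratios scaling in place of TPM alone it became 3390 lower (22.6%) and 3028 higher (20.2%), and the median over all tested rows moved from 0.0708 to -0.000646. The called rows were mostly lower under both, 68.4% with TPM and 78.2% after scaling. Among the called rows 117 of the lower and 61 of the higher were protein coding in GENCODE 29, 77.1% of the called rows beside 80.9% of all tested rows. The names of 24 lower and 5 higher rows had no match there.

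A receptor half-site run stood in the promoters of several of the genes that were lower in isoform 8, and 6 of these promoters are shown: the 5 with the largest differences among those whose match lies before the gene start, and PPP1R14D, which has 2 matches. Promoter windows from RefSeq (GRCh38.p14; 250 bases before to 50 after the gene start) matched 102 of the 158 lower and 45 of the 73 higher rows, and 10412 of all tested rows. They were searched on both strands for CAAAGTCC, CAAAGGTC and CAAAGTTC, 3 runs of 8 letters of the kind HNF4A is known to bind. A match was present in 17 of 102 windows of the lower genes (16.7%), in 1 of 45 of the higher genes (2.22%), in 240 of 10412 of all tested genes (2.31%) and in 825 of 27305 windows of the whole table (3.02%). The run CAAAGTCC accounted for 13 of the 17. The 250 bases before the start are printed 5′ to 3′ on the gene's strand, with matches on either strand in capitals.
CREB3L3, chr19:4153381-4153630, plus strand: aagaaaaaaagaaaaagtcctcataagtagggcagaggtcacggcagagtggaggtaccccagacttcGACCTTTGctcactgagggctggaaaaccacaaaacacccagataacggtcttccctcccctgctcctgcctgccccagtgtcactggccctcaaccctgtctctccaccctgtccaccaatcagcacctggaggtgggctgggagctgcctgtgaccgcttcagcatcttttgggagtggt
GPR35, chr2:240605180-240605429, plus strand: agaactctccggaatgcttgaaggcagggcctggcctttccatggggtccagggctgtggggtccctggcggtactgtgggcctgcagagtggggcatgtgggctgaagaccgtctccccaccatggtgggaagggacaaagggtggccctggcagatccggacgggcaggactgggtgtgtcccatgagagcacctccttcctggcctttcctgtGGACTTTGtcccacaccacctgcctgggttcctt
RBP2, chr3:139476517-139476766, minus strand: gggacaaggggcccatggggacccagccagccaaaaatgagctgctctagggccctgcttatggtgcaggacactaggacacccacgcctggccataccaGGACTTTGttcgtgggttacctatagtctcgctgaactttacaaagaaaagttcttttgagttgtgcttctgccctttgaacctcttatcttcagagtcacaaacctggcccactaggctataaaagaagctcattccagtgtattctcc
CLRN3, chr10:127892942-127893191, minus strand: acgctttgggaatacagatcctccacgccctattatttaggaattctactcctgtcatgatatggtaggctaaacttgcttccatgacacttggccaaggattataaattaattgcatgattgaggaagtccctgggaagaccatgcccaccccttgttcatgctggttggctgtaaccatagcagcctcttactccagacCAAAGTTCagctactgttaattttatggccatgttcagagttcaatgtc
SELENOP, chr5:42811893-42812142, minus strand: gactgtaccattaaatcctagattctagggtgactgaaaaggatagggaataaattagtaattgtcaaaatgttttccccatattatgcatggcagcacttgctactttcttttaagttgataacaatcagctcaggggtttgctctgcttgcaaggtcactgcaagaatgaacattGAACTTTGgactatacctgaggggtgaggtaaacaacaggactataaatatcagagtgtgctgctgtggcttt
PPP1R14D, chr15:40828709-40828958, minus strand: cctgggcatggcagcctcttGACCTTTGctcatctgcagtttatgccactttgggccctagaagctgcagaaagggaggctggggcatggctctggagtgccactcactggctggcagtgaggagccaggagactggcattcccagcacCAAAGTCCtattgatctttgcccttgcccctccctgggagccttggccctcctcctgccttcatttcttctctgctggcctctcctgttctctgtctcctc

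These matches are letters in a window, not measured binding. CREB3L3, shown first, had a match 182 bases before its start and GPR35 34 bases before. RBP2, a retinol-binding protein of enterocytes, differed by -1.88, as did CLRN3, a clarin-family membrane protein. SELENOP, the plasma selenium carrier, differed by -1.74 and PPP1R14D, a protein phosphatase 1 inhibitor of gut with 2 matches, by -1.63.

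Among the 14 genes with the largest differences lower in isoform 8, CIDEB and CREB3L3 serve lipid handling and its transcription. CIDEB (chr14:24305096-24311430), a lipid droplet protein of hepatocytes and enterocytes, was at 40, 49.1 and 45.1 TPM in the isoform 2 libraries and at 2.77, 3.9 and 3.52 TPM in those of isoform 8. Its lowest isoform 2 value was thus far above its highest isoform 8 value, with a log2 difference of -3.38 ± 0.178 (SE, adjusted p = 3.28e-15), and the parental mean was 2.28 TPM. CREB3L3 (chr19:4153601-4173054), a membrane-bound factor that drives triglyceride and fasting genes, was at 36.8, 41.7 and 32 TPM against 4.4, 3.66 and 4.17 TPM. The 2 lines were separate again, at -2.89 ± 0.158 (adjusted p = 7.47e-15), and the parental cells had 0.21 TPM. SDCBP2 (chr20:1309909-1329239), a syntenin-family protein, was at 19.8, 19.8 and 23.8 TPM against 1.57, 0.72 and 1.69 TPM, a difference of -3.27 ± 0.191 (adjusted p = 2.7e-14).

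The microvillus and cytoskeleton supplied 3 more. VIL1 (chr2:218419092-218453295), the actin-bundling villin of the brush border, was at 30.7, 32.5 and 36.6 TPM with isoform 2 and at 3.97, 3.92 and 4.19 TPM with isoform 8. The difference was -2.77 ± 0.165 (adjusted p = 4.66e-14), and with 0.554 TPM in the parental cells both lines lay above them. MYO15B (chr17:75588058-75626501), an unconventional myosin gene, was at 83.9, 87.1 and 90.7 TPM against 14, 15.5 and 14.4 TPM, a difference of -2.5 ± 0.158 (adjusted p = 1.59e-13). FMN1 (chr15:32765545-33194733), a formin that nucleates actin filaments, was at 18.5, 20.3 and 19.7 TPM against 1.4, 1.25 and 1.22 TPM. Its isoform 8 values lay close to the parental mean of 1.23 TPM, whereas VIL1 and MYO15B stayed above theirs in both lines.

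The rest of the 14 were of mixed function. MVP (chr16:29820394-29848039), the major vault protein, was at 89.1, 98.8 and 101 TPM against 11.7, 11.4 and 11.6 TPM (difference -2.95 ± 0.125, adjusted p = 2e-17). ARL14EPL (chr5:116032324-116060118) had the largest difference of all rows, -3.96 ± 0.205 (adjusted p = 2.18e-15), with 29.4, 38.5 and 40.7 TPM against 2.03, 0.938 and 1.25 TPM. GPR35, an orphan G protein-coupled receptor of gut, fell from a mean of 19.8 TPM in isoform 2 to 2.96 TPM in isoform 8, and HHLA2, a B7-family checkpoint ligand, from 5.68 to 0.266 TPM. HHLA2 had a mean of 1.19 TPM over the 39 libraries. It reached the 1 TPM needed for testing only with the isoform 2 libraries counted in, so its call adds no support. SLC1A7, a glutamate transporter, was at 8.73 and 0.915 TPM, and ZBED2, a zinc finger repressor, at 42.3 and 6.77 TPM. ZBED2 was the only one of these 4 whose parental mean, 11.6 TPM, lay above that of isoform 8. SULT1A4, a phenol sulfotransferase, has a near-identical copy in SULT1A3, and the authors' counting split reads between the 2 rows unevenly. Their sum was 59.5, 53.4 and 56.6 TPM against 22.2, 24 and 22.9 TPM, a difference of -1.26 between the means on the log2(TPM + 1) scale in place of -2.86 for SULT1A4 alone.

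The noncoding LINC02313, which the naming rule set apart by its name, was at 12.4 and 1.43 TPM and listed at 0 in the parental cells (difference -2.48).

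Steroid-synthesis enzymes moved in opposite directions. CYP17A1 (chr10:102830531-102837533), the 17-hydroxylase, was at 20.4, 15.4 and 20.1 TPM with isoform 2 and at 3.14, 2.91 and 3.6 TPM with isoform 8, a difference of -2.21 ± 0.171 (adjusted p = 1.33e-11). CYP11A1 (chr15:74337759-74367740), which cleaves the cholesterol side chain, was at 0.0945, 0.0647 and 0.0679 TPM with isoform 2 and at 5.27, 6.51 and 7 TPM with isoform 8, a difference of 2.75 ± 0.105 (adjusted p = 4.72e-18). The parental cells had little of either, with 0.164 TPM of CYP17A1 and 0.0861 TPM of CYP11A1. CYP11A1 was therefore near the parental level in one line and CYP17A1 was above it in both.

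**Figure D2:**
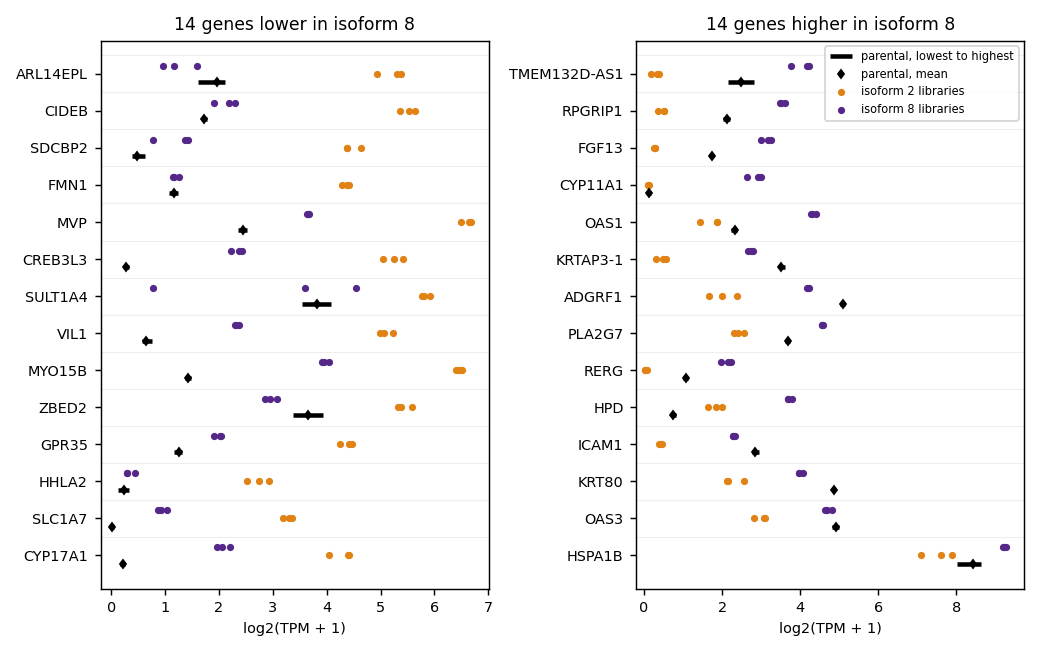
Values in log2(TPM + 1) of the 14 genes with the largest differences lower and the 14 higher in isoform 8, with 1 dot per library of isoform 2 (orange) and isoform 8 (purple) and the lowest, mean and highest value of the 3 parental libraries (black). The dots of the 2 lines are separate for each of the 28 genes, and those of SULT1A4 run from 0.71 to 22.2 TPM in isoform 8.

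The 14 genes higher in isoform 8 included CYP11A1 and others of mixed function. RPGRIP1 (chr14:21287939-21351301), a scaffold of the photoreceptor cilium, was at 0.412, 0.432 and 0.279 TPM with isoform 2 and at 10.1, 11.3 and 10.4 TPM with isoform 8 (difference 3.08 ± 0.129, adjusted p = 1.93e-17), and at 3.37 TPM in the parental cells. FGF13, an intracellular fibroblast growth factor homologue, was at 0.188, 0.203 and 0.222 TPM against 7.99, 6.95 and 8.6 TPM (difference 2.87 ± 0.13, adjusted p = 1.09e-16), with 2.34 TPM in the parental cells. In both genes the parental mean lay between the lines.

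OAS1 (chr12:112906777-112933222), an interferon-induced sensor of double-stranded RNA, was at 2.64, 2.68 and 1.69 TPM with isoform 2 and at 18.6, 18.3 and 20.3 TPM with isoform 8 (difference 2.6 ± 0.108, adjusted p = 1.52e-17). Its parental mean of 4 TPM lay close to isoform 2. OAS3, its neighbour and relative, was at 6.97 and 25.1 TPM (difference 1.72 ± 0.0922, adjusted p = 5.04e-15) with a parental mean of 29.2 TPM, so OAS1 was above and OAS3 below the parental level in isoform 8. ICAM1, the leukocyte adhesion molecule, was at 0.377, 0.302 and 0.342 TPM against 3.85, 3.89 and 4 TPM (difference 1.87 ± 0.171, adjusted p = 4.06e-10), with 6.12 TPM in the parental cells. In ICAM1 the isoform 2 values were low against both other groups.

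HPD and PLA2G7 lay above the parental level in isoform 8. HPD, the tyrosine catabolic dioxygenase, was at 2.98, 2.56 and 2.11 TPM with isoform 2 and at 11.8, 11.9 and 12.7 TPM with isoform 8, against 0.661 TPM in the parental cells. PLA2G7, a secreted phospholipase that inactivates platelet-activating factor, was at 4.37 and 22.7 TPM with 11.9 TPM in the parental cells. For ADGRF1 (3.13 and 17.4 TPM), KRT80 (3.87 and 15.1 TPM) and KRTAP3-1 (0.369 and 5.63 TPM) the parental means of 32.9, 27.9 and 10.3 TPM lay above both lines. RERG, a Ras-like protein, was at 0.018 to 0.056 TPM in isoform 2 and 2.9 to 3.66 TPM in isoform 8. TMEM132D-AS1, an antisense transcript, had the largest difference, from 0.229 to 15.7 TPM. Whether the authors' counting used strand is not given in the sources used here.

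HSPA1B, the inducible heat shock protein 70, is near-identical to HSPA1A. The sum of the 2 rows was 136, 196 and 236 TPM with isoform 2 and 627, 588 and 599 TPM with isoform 8, with a parental mean of 348 TPM. The 2 lines did not overlap in the sum. Of the 28 genes named here by size, 5 overlap another tested gene in GENCODE 29, and none of those neighbours was called in the same direction, among them NOP9 beside CIDEB (-0.14) and USP37 beside VIL1 (0.09).

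The parental cells place the 2 sets differently. Of the 158 rows lower in isoform 8, the parental mean lay below both lines in 99, between them in 56 and above both in 3. Of the 73 rows higher in isoform 8, it lay below both in 4, between them in 33 and above both in 36. Because the same isoform 2 and 8 values chose the rows, these counts describe levels and were not tested.

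Gene lists were drawn from general knowledge, with earlier results of these data known. They were then read against the background of 1.05% of tested rows called lower and 0.487% called higher, with a median of 0.0708 over all tested rows. Known HNF4A targets of liver and gut had 5 of 21 members tested and 4 of these called lower, with a list median of -2.09. They were VIL1, F10, LGALS4 and APOA1, and no tested member was called higher. APOA1, with a mean of 1.06 TPM over the 39 libraries, passed the filter on low values only with the isoform 2 libraries counted in it, so its call adds no support to the count or the median. F10 was at 24.6, 30.5 and 30.3 TPM with isoform 2 and at 5.52, 4.43 and 6.17 TPM with isoform 8, and the parental mean of 9.25 TPM lay above the isoform 8 values. LGALS4, a gut galectin, had 11.5 and 1.9 TPM, and APOA1, the main protein of high-density lipoprotein, 3.74 and 0.401 TPM. MTTP, which loads lipid onto lipoproteins, was the fifth member tested, at 0.82 and 1.17 TPM (difference 0.26, adjusted p = 0.0769). The other 16 had a mean under 1 TPM over the 39 libraries, though APOC3 stood at 1.28 and 0.0669 TPM and TM4SF5 at 2.71 and 0.488 TPM in the 2 lines. No other untested member had a mean above 1 TPM in either line, and these low values went in both directions. APOA4 was at 0.661 and 0.0179 TPM, G6PC at 0.17 and 0.187 TPM, and APOB and TTR at 0 in both lines.

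The brush border list had 13 of 22 members tested and 2 called lower, VIL1 and MISP, with a median of -0.62. MISP, an actin-bundling protein at microvillus rootlets, was at 76.3, 77.3 and 79.9 TPM against 29.5, 29.9 and 30.7 TPM (difference -1.34 ± 0.0875, adjusted p = 3.01e-13). Without the minimum difference 8 members were lower and 2 higher, beside 14.7% and 29.5% of all tested rows. SLC9A3R1, an apical scaffold, was among the 8 at 320 and 173 TPM (difference -0.89), whereas EZR, the membrane-actin linker ezrin, rose from 447 to 586 TPM (difference 0.39). The untested MYO1A, a brush border myosin, stood at 3.46 TPM with isoform 2 and 0.374 TPM with isoform 8, and EPS8L3 at 2.1 and 0.144 TPM. No other untested member had a mean above 1 TPM in either line, and these low values went in both directions. PDZK1 was at 0.842 and 0.929 TPM, ANKS4B at 0.113 and 0.12 TPM and CDHR2 at 0.455 and 0.305 TPM.

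In the lipid droplet and acyl-CoA list 4 of 21 tested members were called lower and none higher. CIDEC, which fuses lipid droplets, was at 62.3, 62 and 58.2 TPM with isoform 2 and at 14.1, 12.3 and 14.5 TPM with isoform 8 (difference -2.08 ± 0.129, adjusted p = 1e-13), while the parental cells had 0.0745 TPM. AGPAT2, an acyltransferase of phosphatidic acid synthesis, fell from 214 to 102 TPM. The other called members were CIDEB and SDCBP2, the latter a PDZ-domain scaffold that binds phosphoinositides and no lipid droplet protein. The list median was -0.14, and PNPLA2, the triglyceride lipase, was at 101 and 105 TPM (difference 0.06, adjusted p = 0.371). The apolipoprotein list had 1 of 8 tested members lower, APOA1, and APOE stood at 486 and 469 TPM (difference -0.05, adjusted p = 0.587).

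Fatty acid oxidation genes were lower as a group by smaller amounts. HADHB, the thiolase subunit of the mitochondrial trifunctional protein, was the 1 of 21 tested members called, at 135, 147 and 145 TPM against 61.1, 57.7 and 62.3 TPM (difference -1.22 ± 0.0717, adjusted p = 3.1e-14). Without the minimum difference 16 members were lower and 2 higher, beside 14.7% and 29.5% of all tested rows, with a list median of -0.37. HADHA, its partner subunit, was at 180 and 154 TPM (difference -0.23), ETFA, an electron carrier, at 413 and 270 TPM (difference -0.61), and ACADVL, the very long chain acyl-CoA dehydrogenase, at 191 and 141 TPM (difference -0.44). With median-of-ratios scaling the list had 3 calls, 17 lower rows (22.6% of all tested rows were lower then) and a median of -0.45.

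Coagulation, fibrinolysis and serpin genes had 5 of 17 tested members lower and none higher. Beside F10 these were F3 (tissue factor), PLAU (urokinase), PLAUR (its receptor) and SERPINB1 (an inhibitor of neutrophil proteases). F3 was at 22.1, 21.1 and 21.5 TPM with isoform 2 and at 4.98, 4.25 and 4.92 TPM with isoform 8 (difference -1.98 ± 0.113, adjusted p = 1.62e-14), the isoform 8 values lying within the parental range of 4.1 to 5.73 TPM. PLAUR was at 52.3 and 23 TPM, SERPINB1 at 62.2 and 27.1 TPM and PLAU at 130 and 64.2 TPM, and the PLAU call was lost in 2 of the 6 fits that left a library out. PROS1, protein S, was at 27.2 and 14.2 TPM, a difference of -0.89 below the minimum.

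Transport and detoxification genes added single members. Of 20 solute carriers tested, SLC7A7, a basic amino acid exporter (6.53 and 0.833 TPM), SLCO2B1, an organic anion transporter (9.72 and 2.19 TPM), and SLC22A18 (22.3 and 8.4 TPM) were called lower. Of 17 phase II genes tested, SULT2B1, a sterol sulfotransferase, was at 51.7 and 18.3 TPM (difference -1.45) and MGST2 at 88.7 and 42.9 TPM (difference -1.03), while GSTP1 rose from 632 to 1060 TPM (difference 0.74, adjusted p = 4.94e-16). Of 18 phase I genes, AKR1C3 was lower (3.09 and 1.04 TPM) and DHRS2 higher (3.82 and 10.7 TPM, against 96.4 TPM in the parental cells). The AKR1C3 call was lost in 3 and the MGST2 call in 2 of the 6 fits with a library left out.

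Among 22 gut and liver transcription factors tested, CREB3L3 was lower and NR2F1, the COUP-TFI orphan receptor, higher. NR2F1 was at 5.38, 5.67 and 6.48 TPM with isoform 2 and at 13.7, 11.3 and 14.8 TPM with isoform 8, near its parental mean of 12.8 TPM. The difference was 1.06 ± 0.137 (adjusted p = 3.01e-07), and it was 0.99 with median-of-ratios scaling and thus below the minimum. The Krüppel-like factors KLF6 (114 and 74.3 TPM) and KLF4 (36.6 and 23.6 TPM) were lower by 0.62 and 0.61.

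The inflammatory lists were split. Of 24 interferon-stimulated genes tested, OAS1 and OAS3 were called higher, while ISG15, a ubiquitin-like modifier, was at 239 and 144 TPM (difference -0.73, adjusted p = 8.45e-13). Of 12 NF-kB and chemokine genes, ICAM1 was higher and IL32, a cytokine that the parental cells barely transcribed (0.424 TPM), lower. IL32 was at 90.6, 78.5 and 87.8 TPM with isoform 2 and at 42.6, 40.1 and 42.2 TPM with isoform 8 (difference -1.02 ± 0.154, adjusted p = 3.51e-06), a call lost in 2 of the 6 fits. None of 16 antigen presentation genes was called, and B2M, the light chain of class I molecules, was at 465 and 322 TPM (difference -0.53).

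Proliferation genes were slightly higher in isoform 8 than in isoform 2, and none was called. The list medians of both lines lay below the parental cells. For S phase they were -0.21 for isoform 8 minus parental and -0.5 for isoform 2 minus parental, and for mitosis -0.16 and -0.4. Of 35 S phase genes tested 26 were higher and 2 lower without the minimum difference, with a median of 0.31, and of 32 mitotic genes 28 were higher and 1 lower, with a median of 0.26. Of all tested rows 29.5% were higher and 14.7% lower in this way. PCNA, the replication clamp, was at 385 and 478 TPM (difference 0.31, adjusted p = 0.00026), and UBE2C, a mitotic ubiquitin-conjugating enzyme, at 207 and 269 TPM (difference 0.38, adjusted p = 0.000272). With median-of-ratios scaling the higher members numbered 17 and 18, with medians of 0.23 and 0.18, beside 20.2% of all tested rows. CDKN1A, the p21 cell cycle inhibitor, was the 1 of 23 p53 targets called, at 276 and 136 TPM (difference -1.01 ± 0.0855, adjusted p = 9.14e-11), and its call was lost in 2 of the 6 fits. MDM2, another p53 target, was at 72.9 and 70.2 TPM (adjusted p = 0.681).

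In the epithelial-mesenchymal list VIM and SPARC were called higher of 21 tested. VIM, the intermediate filament vimentin, was at 6.13, 7.41 and 4.78 TPM with isoform 2 and at 18.5, 18.3 and 18.7 TPM with isoform 8, against 14.1 TPM in the parental cells (difference 1.47 ± 0.218, adjusted p = 2.54e-06). SPARC, a matrix protein, was at 0.105 and 1.27 TPM, both far below the parental 17.2 TPM (difference 1.03, adjusted p = 0.0137). EPCAM and the keratin KRT8 stood at 512 and 536 TPM and at 1800 TPM in both lines. DSC2, a desmosomal cadherin, was the 1 of 22 junction genes called, at 36.5 and 17.7 TPM, and its call was lost in 2 of the 6 fits.

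No member was called of the lists for Wnt targets (14 tested), the circadian clock (21), ATF4 and serine synthesis (20), cholesterol synthesis (28), EGF ligands and receptors (11), ribosomal proteins (52), the nuclear-encoded respiratory chain (40) or HNF4A co-regulators (19). Their medians lay between -0.13 and 0.17. Without the minimum difference each of these lists had members in both directions, for example 8 lower and 8 higher of the cholesterol genes. The ribosomal proteins had 1 lower and 20 higher and the respiratory chain 11 lower and 3 higher, beside 14.7% and 29.5% of all tested rows. With median-of-ratios scaling these became 2 and 5, and 22 and 0, beside 22.6% and 20.2%. ATF4 was at 351 and 336 TPM, and the co-regulator PRMT1, an arginine methyltransferase, at 439 and 458 TPM.

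**Figure D3:**
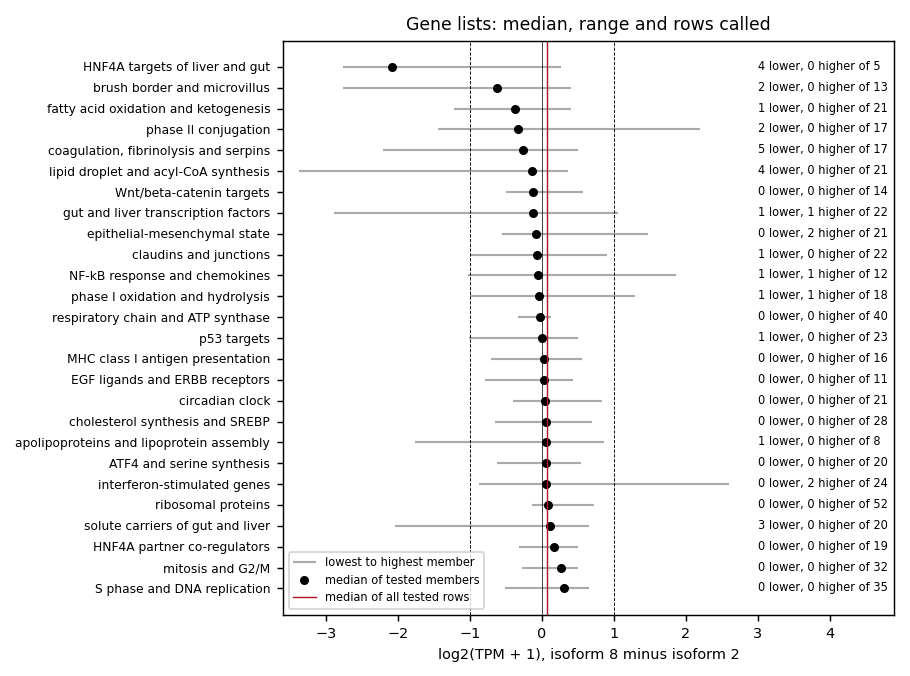
For each list the dot is the median difference of the tested members in log2(TPM + 1), isoform 8 minus isoform 2, the grey line runs from the lowest to the highest member, and the text gives how many were called. HNF4A targets have the lowest median (-2.09, 4 lower of 5) and the S phase list the highest (0.31, none called), and the red line marks the median of all tested rows, 0.0708.

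Neighbouring genes on chromosome 9, most of them not called, shared a small difference. In a stretch of 25 tested genes between 15163622 and 27573866 (GRCh38), chosen after its values were seen, 21 lay above 0 in isoform 8 minus isoform 2 and 16 of these had an adjusted p under 0.05, with a median of 0.57. Over all tested rows 29.5% were higher in this way and the median was 0.0708, values that depend on the scaling. MTAP, of methionine salvage, was at 22.9 and 47.3 TPM (difference 1.01) and CDKN2B, the p15 inhibitor, at 1.94 and 4.94 TPM (difference 1.02), and both were called. RPS6, which gave the ribosomal list its highest difference, was at 2100 and 3460 TPM (0.72), and CDKN2A at 83.6 and 134 TPM (0.67). The medians over the stretch were -0.51 for isoform 2 minus parental and -0.06 for isoform 8 minus parental. They were 0.06 for isoform 7 minus isoform 1 and 0.28 for isoform 9 minus isoform 3. Single genes departed from these medians: between isoforms 7 and 1, CDKN2B differed by 1.1, CDKN2A by 0.37, MTAP by 0.35 and RPS6 by 0.04. Over 13207 windows of 15 neighbouring tested genes the median difference reached 0.68 in this stretch and no more than 0.49 off chromosome 9. A median above 0.3 was found in 209 windows, only 24 of them on chromosome 9, and one below -0.3 in 16 windows. DNA copy number was not measured, and its part in these values was not tested.

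**Figure D4:**
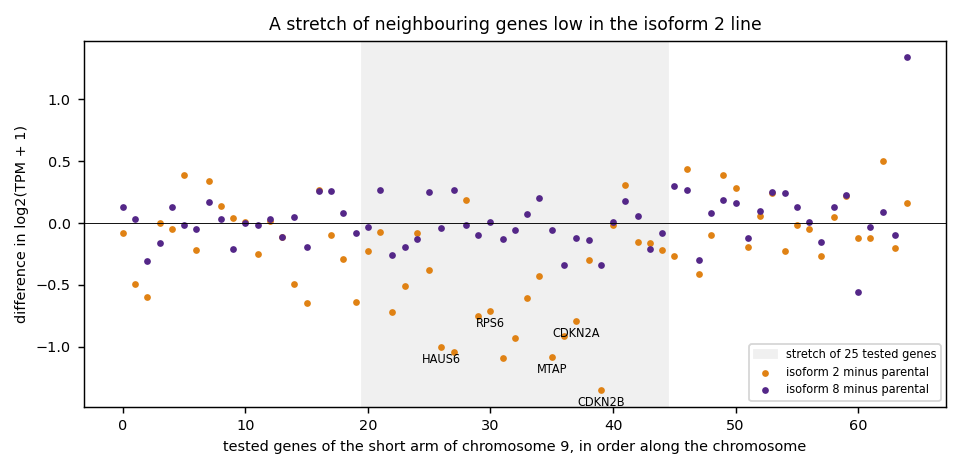
Tested genes of the short arm of chromosome 9 in their order along it, with the difference from the parental cells in log2(TPM + 1) for isoform 2 (orange) and isoform 8 (purple). In the shaded stretch of 25 genes the isoform 2 points have a median of -0.51 and the isoform 8 points -0.06.

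The same exchange of N-terminus was also made in 2 other pairs of lines that share no library with these 6. Isoforms 7 (P2) and 1 (P1) lack the insertion, and isoforms 9 (P2) and 3 (P1) have a shortened C-terminus. Isoform 7 against isoform 1 gave 213 calls (1.42% of tested rows), 175 lower (1.17%) and 38 higher (0.253%). Of the rows lower in isoform 8, 96 were also lower in isoform 7, 60.8% of the one list and 54.9% of the other. Of the rows higher in isoform 8, 14 were also higher in isoform 7, 19.2% and 36.8% of the 2 lists. The median difference in the 7 and 1 pair was -1.19 for the 158 lower rows and 0.5 for the 73 higher rows, against 0.0379 over all tested rows.

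Isoform 9 against isoform 3 gave 84 calls (0.56%), 65 lower (0.433%) and 19 higher (0.127%). Replicate 1 of isoform 3 was known to stand apart. No count or difference that uses isoform 3, here or in the contrast below, was recomputed without that library. They shared 31 lower rows with the 8 and 2 pair (19.6% of its lower list and 47.7% of theirs) and 6 higher rows (8.22% and 31.6%). In all 3 pairs 30 rows were lower and 3 were higher. CIDEB was lower by 3.38, 3.45 and 2.55 on the log2(TPM + 1) scale in the pairs 8 and 2, 7 and 1, and 9 and 3, and VIL1 by 2.77, 3.18 and 2.24. HPD was higher by 1.89, 2.17 and 1.18. CYP11A1 was higher by 2.75 and 2.69 in the first 2 pairs and differed by 0.12 (adjusted p = 0.463) between isoforms 9 and 3. APOA1 was lower by 1.76 and 2.26 and then differed by 0.02 (adjusted p = 0.927).

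**Figure D5:**
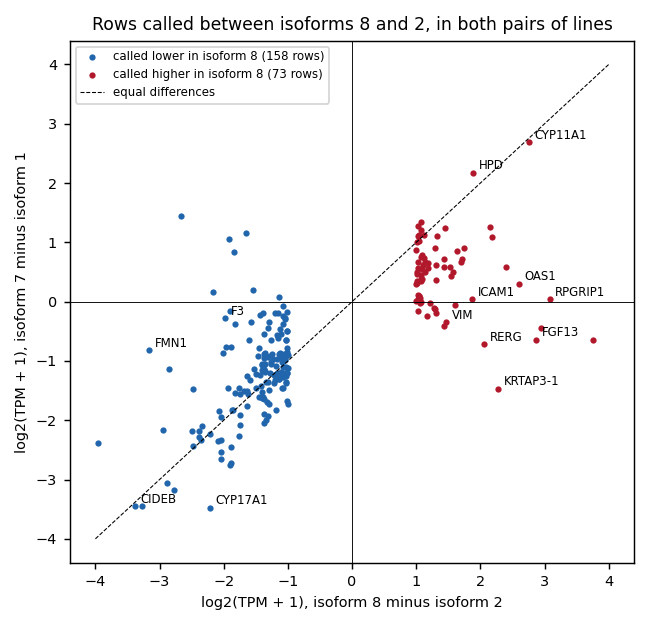
Each point is 1 of the 231 rows called between isoforms 8 and 2, with that difference in log2(TPM + 1) on the x axis and the difference between isoforms 7 and 1, from other libraries, on the y axis. Rows lower in isoform 8 (blue) lie mostly below 0 on the y axis, with a median of -1.19, while the rows higher in isoform 8 (red) have a median of 0.5 and include RPGRIP1, FGF13 and KRTAP3-1 at or below 0.04.

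The difference between the pairs was tested directly. The contrast of 8 minus 2 with 7 minus 1 gave 69 calls (0.46%), and 34 of them were rows called between isoforms 8 and 2, 12 of the lower and 22 of the higher. The isoform 8 and 2 values that chose those rows also enter this contrast and the one with 9 minus 3. These overlap counts are therefore descriptions and were not tested. FMN1 was lower by 3.16 in the 8 and 2 pair and by 0.82 in the 7 and 1 pair (difference -2.34, adjusted p = 4.52e-12). F3 differed by -1.98 and -0.28 (difference -1.71, adjusted p = 1.3e-08). CYP17A1 went the other way, at -2.21 and -3.48 (difference 1.26, adjusted p = 0.00122). Among the higher genes with a called difference between the pairs were FGF13 (2.87 and -0.64), RPGRIP1 (3.08 and 0.04), RERG (2.06 and -0.72), OAS1 (2.6 and 0.3), ICAM1 (1.87 and 0.04) and VIM (1.47 and -0.35). KRTAP3-1 was the 1 row called in opposite directions, 2.28 and -1.47. The contrast with 9 minus 3 gave 164 calls (1.09%), 87 of them rows called between isoforms 8 and 2, 52 of the lower and 35 of the higher. APOA1 (difference -1.78, adjusted p = 9.6e-09), CYP11A1 (2.63, adjusted p = 1.02e-13) and SDCBP2 (-1.67, adjusted p = 4.87e-05) were among these.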

How the data were processed

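Poly(A)-selected RNA of 39 libraries (13 groups of 3, grouped by their labels) was sequenced. The authors deposited TPM per gene and library in 13 tables of 45446 rows, and the submitters' processing notes name Trimmomatic 0.36, FastQC 0.11.5, kallisto 0.44.0, DESeq2 1.22.2 and GRCh38.p12, with no role or order. TPM keeps no read depth, so the depth of each library is unknown here and no counting interval is given. Because TPM are shares of a library, a change in a few abundant transcripts shifts all others.

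The 12 rows of HNF4A isoforms were set aside, leaving 45434. A row was tested when its mean across all 39 libraries reached 1 TPM, using limma 3.58.1 (R 4.3.3; eBayes with a trend) on log2(TPM + 1), with 13 group means and 26 residual degrees of freedom, and p-values were adjusted by Benjamini-Hochberg over all 15002 tested rows. Fold changes on the log2(TPM + 1) scale understate those of low genes. HNF4A itself was compared with an exact permutation test. Alternatives were another pseudocount, other filters, median-of-ratios scaling, fewer libraries, a replicate block and each library left out. For 2 lines (isoforms 4 and 5) the columns give a group but no replicate number, and 29 gene names that a spreadsheet had turned into dates were restored from the parental table, whose rows are in the same order. Coordinates are from GENCODE 29 (GRCh38) and promoters from RefSeq (GRCh38.p14).

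Genes were named by rule. These were the 14 rows with the largest called differences in each direction that kept their call in every leave-one-out fit, did not overlap between the lines and carried no small RNA, ribosomal pseudogene, clone or LINC name; the called members of each list; up to 4 uncalled members of each list with the highest levels; called rows that differed from the isoform 7 and 1 pair; and up to 4 uncertain rows. Other genes named are said to have been chosen after their values were seen, as were the 6 promoters and the untested list members. A few results are not reported here. The members and lists were chosen with earlier results of these data known.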

Additional observations from a re-analysis of the deposited data

Results flagged for a closer look

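For 34 of the rows called between isoforms 8 and 2, the difference was itself different from that between isoforms 7 and 1, which carry the same N-termini without the insertion (limma contrast of both differences, adjusted p under 0.05 and a size of at least 1). The isoform 8 and 2 values that chose the rows also enter this contrast. The values given, for all but 1 of them, are (8 minus 2) minus (7 minus 1) in log2(TPM + 1).

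More negative in the 8 and 2 pair were FMN1 (-2.34), F3 (-1.71), ARL14EPL (-1.58), UCA1, a long noncoding RNA (-1.23), HTR7, a serotonin receptor (-1.2), ZBED2 (-1.01), the pseudogene AQP7P3 (-1.14), and the unnamed loci LOC105377018 (-1.44), LOC105373191 (-1.24) and LOC101927915 (-1.2). LOC105377018 had a mean of 1.08 TPM over the 39 libraries. It reached the 1 TPM needed for testing only with the isoform 2 libraries counted in, so its call adds no support. The small RNA row RNU6-589P (-4.1) was at 9.37, 16 and 11.4 TPM in isoform 2 and at 0, 7.6 and 0 TPM in isoform 8, so its value is uncertain.

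More positive in the 8 and 2 pair were TMEM132D-AS1 (4.41), KRTAP3-1 (3.75), FGF13 (3.52), RPGRIP1 (3.03), RERG (2.79), OAS1 (2.3), ICAM1 (1.84), SUCNR1, the succinate receptor (1.84), VIM (1.83), CAVIN2, a caveola coat protein (1.65), KLRC2 (1.51) and the orphan nuclear receptor NR4A2 (1.41). Smaller differences were those of the kinase TNIK (1.38), KALRN (1.18), ADGRF1 (1.1), MAL2 (1.1), the complement receptor CR2 (1.08), NR2F1 (1.08), the connexin GJA3 (1.07) and THBS1, the matrix protein thrombospondin (1). CYP17A1 (1.26) is also positive here because it was lower in both pairs and by more between isoforms 7 and 1. The small RNA row RNU6-431P (3.39) is uncertain.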

How the results depend on the processing

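The counts of called rows moved with the pseudocount and the filter. With a pseudocount of 0.1 they were 387 between isoforms 8 and 2 (163 higher), 345 between 7 and 1, 156 between 9 and 3, and 124 and 257 for the contrasts of the 8 and 2 pair with those 2 pairs. With a mean of at least 5 TPM, where fewer rows are tested, they were 140 (96 lower, 44 higher), 136, 42, 32 and 79. With no minimum difference 6636 rows passed (2206 lower, 4430 higher). The median over all tested rows was 0.00119 with no filter, -0.000646 with median-of-ratios scaling and 0.0379 without the mitochondrial rows. The HNF4A difference was 83.5 TPM with median-of-ratios scaling.

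Leaving out each library in turn gave 225 to 237 calls, 150 to 161 lower and 68 to 79 higher, 60 to 76 and 148 to 167 for the 2 contrasts, and an HNF4A difference of 102 to 141 TPM. The other settings run gave 229 to 260 calls, among them 238 with median-of-ratios scaling, 210 of which were also called without it.

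Same-numbered libraries of isoforms 8 and 2 did not deviate together (r of -0.061, -0.175 and -0.056), and the main fit did not pair them. With 3 libraries per line, these values cannot decide whether same-numbered libraries were handled together. A replicate block gave 235 calls over 33 libraries, 230 of them shared, and 251 with the 6 libraries alone.

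None of the 74 named genes called between isoforms 8 and 2 changed direction in the settings that tested it. Of these, KALRN (0.98), NR2F1 (0.99) and THBS1 (1) fell under the minimum with median-of-ratios scaling. With isoform 8 replicate 2 alone, the library with the higher mitochondrial share, the lone library is assumed to vary like the other groups and 7 calls were lost, namely KALRN (0.98), NR2F1 (0.85), SPARC (0.83), DHRS2 (1.39, adjusted p = 0.0849 by limma), THBS1 (0.97), CD68 (-0.99) and RNU6-589P (-0.59). That alternative, the exclusion of mitochondrial rows and the exclusion of the chromosome 9 stretch were chosen after seeing the data.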

Other observations

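Other called genes, chosen after their values were seen, are described singly. NR1I3, the xenobiotic receptor CAR, was at 12.5 TPM with isoform 2 and 2.26 TPM with isoform 8 (difference -2.05 ± 0.165, limma adjusted p = 2.79e-11). BAAT, which conjugates bile acids to amino acids, was at 16.1 and 3.15 TPM (difference -2.04), and the canalicular exporter ABCC2 at 34.3 and 16.2 TPM (difference -1.03). Of the retinoid genes, RBP2 was at 6.5 and 1.06 TPM and the retinol dehydrogenase RDH5 at 5.75 and 1.7 TPM. APOBEC1, the enzyme that edits apolipoprotein B mRNA, was at 29.7 and 9.94 TPM and barely present in the parental cells (0.0403 TPM). The calcium-binding S100A10 (91.2 and 29.5 TPM) and S100A16 (161 and 66.9 TPM) and the ligands WNT16 (19.5 and 6.86 TPM) and WNT3 (11.5 and 5.11 TPM) were also lower.

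Higher in isoform 8 were CTGF (3.8 and 11.9 TPM) and CYR61 (15.3 and 33.3 TPM), matricellular proteins known as targets of YAP, the keratin KRT7 (1.25 and 5.99 TPM) and IGFBP7 (9.55 and 21.9 TPM). For CTGF and CYR61 the parental means of 6.42 and 21.1 TPM lay between the lines.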
